A study of Mus musculus with 6 samples.

Results

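The BCL-2 family, the inhibitor of apoptosis proteins (IAPs) and cFLIP decide whether a cell survives a death signal. Their transcripts were followed in RNA bound by YTHDF2 in regulatory T (Treg) cells of mouse tumours. The 10 genes were fixed by a list of Ensembl gene IDs, not by their values, and the list was chosen with earlier results of these data known. All 10 were present among the 54446 gene IDs of the files. They are the pro-survival genes Bcl2, Bcl2l1 and Mcl1, the BH3-only genes Bcl2l11 and Bbc3, the pore-forming effectors Bax and Bak1, the IAP genes Birc2 and Birc3, and Cflar. Their IDs, in that order, are ENSMUSG00000057329, ENSMUSG00000007659, ENSMUSG00000038612, ENSMUSG00000027381, ENSMUSG00000002083, ENSMUSG00000003873, ENSMUSG00000057789, ENSMUSG00000057367, ENSMUSG00000032000 and ENSMUSG00000026031.

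Apoptosis through mitochondria starts when BAX and BAK form pores in the outer mitochondrial membrane. BCL-2, BCL-XL (the product of Bcl2l1) and MCL-1 hold these effectors in check, and BH3-only proteins such as BIM (from Bcl2l11) and PUMA (from Bbc3) release them. At death receptors, cFLIP blocks activation of caspase-8, and the ubiquitin ligases cIAP1 and cIAP2 (from Birc2 and Birc3) steer signalling towards NF-kB and survival. In Treg cells the balance of MCL-1 against BIM is known to set cell number. YTHDF2 reads a methyl mark on adenosine, N6-methyladenosine (m6A), and recruits the machinery that shortens the life of the mRNA that carries it.

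RNA immunoprecipitation sequencing (RIP-seq) gave 3 libraries of the YTHDF2 immunoprecipitation (IP), made with an anti-YTHDF2 antibody, and 3 libraries of the Input, the part of the lysate set aside before the beads were added. Both came from wild-type Treg cells that carried a Foxp3-GFP reporter and were sorted as live, CD45+, CD4+ and GFP+ from subcutaneous tumours of B16F10, a mouse melanoma line. The labels give neither the age nor the strain of the hosts, and do not say whether replicates are separate animals, pools or preparations, so a p-value here sets the difference against the spread between libraries, and that spread may be technical. The comparison asks which transcripts are more or less abundant in the IP than in the Input. A precipitation with a control antibody, or from cells without YTHDF2, was not analysed here, so an enrichment means only that.

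The IP libraries held 6847731 to 8465453 gene-assigned reads and the Input libraries 10029733 to 14704617. Gene IDs with at least 1 read numbered 14200 to 19991 per IP library and 26250 to 33344 per Input library. Values are CPM, the reads of a gene relative to the reads of all genes of its library that passed the filter on low counts. They were scaled between libraries with the trimmed mean of M values (TMM). CPM are read within a gene, since they do not correct for transcript length. The 10 genes together took 0.184% ± 0.00456 of gene-assigned reads in the IP and 0.146% ± 0.00690 in the Input (SD, n = 3 each). A gene was called enriched or depleted at a Benjamini-Hochberg adjusted p under 0.05 in edgeR's quasi-likelihood test over all genes. The Treg label and the other genes of the pathway were not checked here, because no table used here pairs further Ensembl IDs with gene symbols.

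All 10 genes passed the filter on low counts and were tested. Bcl2l11 and Birc3 were enriched in the IP, Bak1 was depleted, and the other 7 did not pass. Of the 15615 genes tested, 4.33% were called enriched and 6.11% depleted. All IP libraries lay above all Input libraries for Bcl2l11, Birc3 and Cflar, and below them for Mcl1, Bak1 and Bbc3, while the groups overlapped for the other 4. Of all tested genes, 12.8% lay above and 23.7% below in this way. Calls were more frequent among abundant genes: of the genes that averaged 49.9 CPM or more, the highest quartile of level, 14.7% were enriched. That quartile holds 7 of the 10 genes, among them Bcl2l11 and Birc3, so 2 enriched genes among 7 are too few to set the list apart from genes of its level. The median log2 fold change was 0.29 over the 10 genes, 0.46 over those 7, -0.12 over all tested genes and 0.10 over all genes of the highest quartile.

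**Figure D1:**
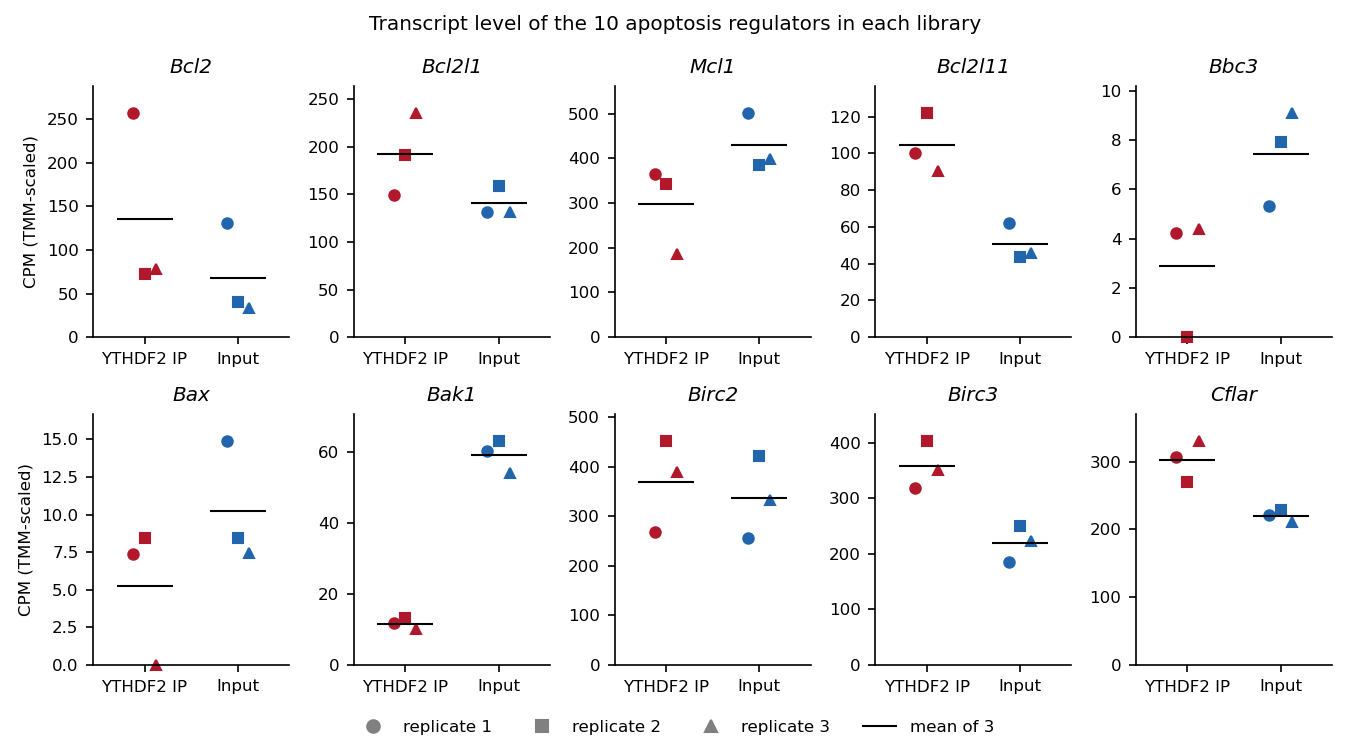
CPM (TMM-scaled) of each gene in the 3 YTHDF2 IP libraries (red, left) and the 3 Input libraries (blue, right); marker shapes give the replicate number, the black line is the mean of 3, and each axis starts at 0. Bak1 lies at 10.1 to 13.2 CPM in the IP and 54.1 to 63.2 CPM in the Input, and the 2 libraries of Bcl2 numbered 1 stand above the others of their group.

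Bcl2l11 encodes BIM, the BH3-only protein that links cytokine withdrawal to death of lymphocytes. Its transcript stood at 100 CPM, 122 CPM and 90.7 CPM in IP replicates 1 to 3, against 61.9 CPM, 43.9 CPM and 45.7 CPM in the Input replicates. Every IP library lay above every Input library. The means were 104 ± 16.1 CPM in the IP and 50.5 ± 9.92 CPM in the Input (SD, n = 3 each). The enrichment was 2.06-fold (95% interval 1.39 to 3.08), a log2 fold change of 1.05 (SE 0.26, edgeR adjusted p = 0.0302). This placed Bcl2l11 above 92.4% of the genes of its quartile of level. The values rest on 764 to 857 reads per IP library and 416 to 859 per Input library.

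The call for Bcl2l11 was kept in 1 of the 6 fits with 1 library left out. Over all tested genes the enriched numbered 676 with all libraries, and 188 to 999 in those fits. The filter was applied anew in each, so those fits tested 17025 to 19027 genes, against 15615 with all libraries. Leaving out IP replicate 1 or 2, or Input replicate 1, 2 or 3, gave edgeR adjusted p-values of 0.0859, 0.112, 0.0714, 0.214 and 0.214, while the log2 fold change stayed between 0.87 and 1.13. Without IP replicate 3 the adjusted p was 0.0153. Library sizes taken from all reads of a file, those outside genes included, gave a log2 fold change of 0.51 and an adjusted p of 0.267. Under that scaling the median of all tested genes was -0.65, and relative to the median Bcl2l11 stood at 1.16, against 1.17 with TMM. Other library sizes shift all genes by nearly the same amount, so this distance could hardly change and does not bear on the call. The gene lies at chr2:128126038-128162547 on the plus strand (GRCm38.p6, the assembly of mm10) and overlaps Acoxl, a gene on the same strand, in the RefSeq annotation. Whether reads from Acoxl enter the Bcl2l11 count was not tested.

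Bbc3 encodes PUMA, a BH3-only protein induced by p53. It had 36, 0 and 37 reads in the IP libraries, against 74, 75 and 105 reads in the Input libraries. This equals 4.22 CPM, 0 CPM and 4.39 CPM in the IP, against 5.33 CPM, 7.91 CPM and 9.10 CPM in the Input. The IP libraries lay below the Input libraries, but IP replicate 2 had no read, which at its depth allows up to 0.436 CPM for counting error only. The log2 fold change of -1.37 had a 95% interval of -4.75 to 2.02 (edgeR adjusted p = 0.692), so neither depletion nor enrichment of Bbc3 could be shown. Without IP replicate 2 it was -0.82. Of the tested genes in its quartile of level, 42.4% had no read in at least 1 IP library and 3.38% in at least 1 Input library.

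Within a library the reads of 2 genes can be compared without any scaling factor. The reads of Bcl2l11 over those of Bbc3 gave a log2 ratio of 4.55, 10.7 and 4.35 in the IP and 3.53, 2.46 and 2.32 in the Input, with 0.5 added to each count. The middle IP value reflects the library with no Bbc3 read and has no upper limit. The other IP values also lay above the highest Input value.

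Bak1, which encodes the effector BAK, had the fitted log2 fold change farthest from 0 among the 10 genes. It stood at 11.7 CPM, 13.2 CPM and 10.1 CPM in IP replicates 1 to 3, against 60.3 CPM, 63.2 CPM and 54.1 CPM in the Input replicates. The groups lay far apart and each varied little, with a coefficient of variation of 13.4% in the IP and 7.81% in the Input. For the genes of its quartile of level the median coefficients were 50.9% and 19.5%. The means were 11.7 ± 1.56 CPM in the IP and 59.2 ± 4.62 CPM in the Input (SD, n = 3 each), from 85 to 100 and 599 to 836 reads per library.

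Relative to the Input, Bak1 was 5.07-fold lower in the IP, a log2 fold change of -2.34 (SE 0.35, edgeR adjusted p = 0.00300). In its quartile of level, 13.5 to 49.9 CPM, 5.3% of genes were depleted, and 5.94% had a lower log2 fold change. The depletion passed the test in all 14 alternative settings, with log2 fold changes of -2.87 to -2.15. The gene lies on the minus strand at chr17:27019812-27028627, and its RefSeq span overlaps that of Ggnbp1, which runs on the plus strand. The kit marks strand, but the strand setting of the counting is not given in the sources used here. Whether reads from Ggnbp1 enter the Bak1 count was not tested. RefSeq genes also overlap Bcl2 (Mir3473f and Gm37053) and Bcl2l1 (Cox4i2 and Gm32211), and whether their reads enter those counts was not tested either.

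Bax, the gene of the second effector, was at low level. It had 63, 58 and 0 reads in the IP libraries, against 207, 80 and 86 in the Input libraries. This is 7.38 CPM, 8.42 CPM and 0 CPM in the IP, against 14.9 CPM, 8.44 CPM and 7.45 CPM in the Input. The groups overlapped, and the absence of reads in IP replicate 3 allows up to 0.356 CPM there for counting error only. The log2 fold change was -0.96 (95% interval -4.15 to 2.22, edgeR adjusted p = 0.782), and -0.42 without IP replicate 3. Where Bax had reads, its reads over those of Bak1 gave log2 ratios of -0.66 and -0.65 in the IP, above the Input ratios of -2.01, -2.90 and -2.85. IP replicate 3, with 85 reads of Bak1 and none of Bax, gave -7.42 with 0.5 added, below every Input library.

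**Figure D2:**
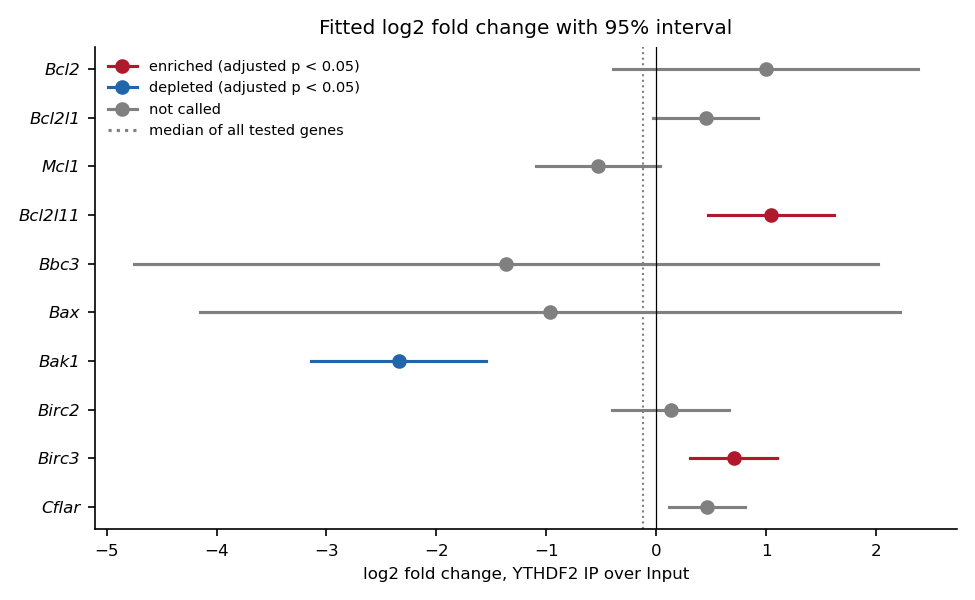
Fitted log2 fold change of YTHDF2 IP over Input for each gene (point) with its 95% interval (line), in red where enriched, in blue where depleted and in grey where not called; the dotted line is the median of all tested genes, -0.12. Bbc3 and Bax have intervals from below -4 to above 2, against -3.14 to -1.55 for Bak1.

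Among the pro-survival genes, none passed the test, and their estimates ran in both directions. Mcl1, whose short-lived protein Treg cells need to survive, had 365 CPM, 343 CPM and 185 CPM in the IP, against 502 CPM, 386 CPM and 400 CPM in the Input. All IP libraries lay below all Input libraries, as for 27.9% of the genes in the highest quartile of level. The means were 298 ± 98.2 CPM in the IP and 429 ± 63.2 CPM in the Input (SD, n = 3 each). This is a log2 fold change of -0.53 (SE 0.25, 95% interval -1.09 to 0.034, edgeR adjusted p = 0.239). Without IP replicate 3, the lowest library, it was -0.31. In fits that leave the replicate number out, Mcl1 passed as depleted with library sizes from all reads, at -1.06 (edgeR adjusted p = 0.0197). The median of all tested genes was also lower there. Mcl1 passed as well without a filter on low counts (edgeR adjusted p = 0.0239). With a replicate block it passed at -0.58 (edgeR adjusted p = 0.0477), though no label pairs the numbers. The median of all tested genes was -0.50 in that fit, and Mcl1 stood at -0.083 relative to it. Without the block Mcl1 stood at -0.41 relative to the median.

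Bcl2l1 encodes BCL-XL. It stood at 149 CPM, 191 CPM and 235 CPM in the IP, against 132 CPM, 158 CPM and 132 CPM in the Input. The lowest IP library lay below the highest Input library. The fit gave a log2 fold change of 0.45 (SE 0.21, 95% interval -0.028 to 0.93, edgeR adjusted p = 0.238). Its estimate was -0.069 when library sizes were taken from all reads. Without IP replicate 3, the highest library, it was 0.24. The reads of Mcl1 over those of Bcl2l1 gave log2 ratios of 1.29, 0.84 and -0.35 in the IP and 1.93, 1.29 and 1.60 in the Input, and the highest IP value exceeded the lowest Input value.

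Bcl2, the founding member of the family, differed more between library 1 and the other libraries of a group than between IP and Input. It stood at 257 CPM, 72.6 CPM and 77.9 CPM in the IP, against 130 CPM, 40.4 CPM and 33.1 CPM in the Input. The library numbered 1 was the highest of its group on both sides, 3.30 times the next in the IP and 3.23 times the next in the Input. Of the 3904 genes in the highest quartile of level, 6 were at least 2-fold above both other libraries in library 1 of both groups, Bcl2 among them, and 0 genes in library 2 or 3. This pattern was looked for after the values of Bcl2 had been seen. In these bulk libraries, a change in the cells that carry Bcl2 cannot be told apart from a change in RNA per cell.

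The IP mean of Bcl2 was 136 ± 105 CPM and the Input mean 68.0 ± 54.2 CPM (SD, n = 3 each). With this spread the log2 fold change of 1.00 (SE 0.62) had a 95% interval of -0.39 to 2.38 in the fit without the replicate number. It did not pass there (edgeR adjusted p = 0.397). At each replicate number the IP value was above the Input value. A fit with a replicate block gave 1.02 (SE 0.24) and passed (edgeR adjusted p = 0.00919), but no label says that equal numbers share a lysate. In fits without the block the log2 fold change was 0.090 without IP replicate 1 and 1.79 without Input replicate 1. This estimate therefore moved most with the libraries numbered 1. Without Input replicate 2 or 3 it was 0.63 or 0.57. Reads of Mcl1 over those of Bcl2 gave log2 ratios of 0.51, 2.24 and 1.25 in the IP and 1.94, 3.26 and 3.59 in the Input, with overlap between the groups, and the libraries numbered 1 were the lowest of each.

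Birc2 and Birc3, paralogous genes for cIAP1 and cIAP2, lie side by side on the minus strand of chromosome 9, at chr9:7818226-7837131 and chr9:7847468-7873205, with 10336 bases between them. Birc3, itself a known target of NF-kB, had 318 CPM, 403 CPM and 350 CPM in the IP, against 185 CPM, 250 CPM and 222 CPM in the Input. The lowest IP library lay above the highest Input library. The means were 357 ± 43.3 CPM in the IP and 219 ± 32.6 CPM in the Input (SD, n = 3 each), from 2367 to 2946 reads per library. Birc3 was 1.63-fold enriched (95% interval 1.24 to 2.14), a log2 fold change of 0.71 (SE 0.18, edgeR adjusted p = 0.0324). It stood above 80.1% of the genes of its quartile.

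The call for Birc3 was lost without IP replicate 1 or 2 and without Input replicate 1, 2 or 3, with edgeR adjusted p-values of 0.0597, 0.116, 0.210, 0.0910 and 0.193, and log2 fold changes of 0.51 to 0.74. Without IP replicate 3 the adjusted p was 0.0326. With library sizes from all reads the log2 fold change was 0.18, with an adjusted p of 0.584. Relative to the median of all tested genes it was 0.83 under both scalings, a distance that a change of library sizes hardly alters for any gene.

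Birc2 had 268 CPM, 452 CPM and 389 CPM in the IP, against 257 CPM, 421 CPM and 333 CPM in the Input. The groups covered nearly the same range, and the library numbered 1 was the lowest on both sides. The estimated log2 fold change was 0.13 (SE 0.24, 95% interval -0.40 to 0.67, edgeR adjusted p = 0.828). The sign turned to -0.11 without Input replicate 1, to -0.074 without IP replicate 2 and to -0.38 with library sizes from all reads.

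Reads of Birc3 over those of Birc2 were compared within each library. The log2 ratio was 0.24, -0.16 and -0.15 in the IP and -0.47, -0.75 and -0.58 in the Input. Every IP library lay above every Input library, with means of -0.024 ± 0.23 in the IP and -0.60 ± 0.14 in the Input (SD, n = 3 each). The difference of 0.58 corresponds to a 1.49-fold higher ratio in the IP. It ranged from 0.45 to 0.65 with 1 library left out. The genes are similar in sequence, and whether reads of the pair fall among those without a unique alignment, which the files list apart from the gene counts, was not tested.

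Cflar encodes cFLIP, which keeps caspase-8 inactive at death receptors. It had 307 CPM, 270 CPM and 331 CPM in the IP, against 221 CPM, 228 CPM and 210 CPM in the Input. The IP lay above the Input without overlap, as for 28.5% of the genes in the highest quartile of level. The means were 303 ± 30.5 CPM in the IP and 220 ± 8.96 CPM in the Input (SD, n = 3 each). Its log2 fold change of 0.46 (SE 0.16) did not pass the test (edgeR adjusted p = 0.0912). Upper quartile factors and total counts gave 0.66 and 0.59 with edgeR adjusted p-values of 0.0244 and 0.0432. Library sizes from all reads turned the estimate to -0.062.

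**Figure D3:**
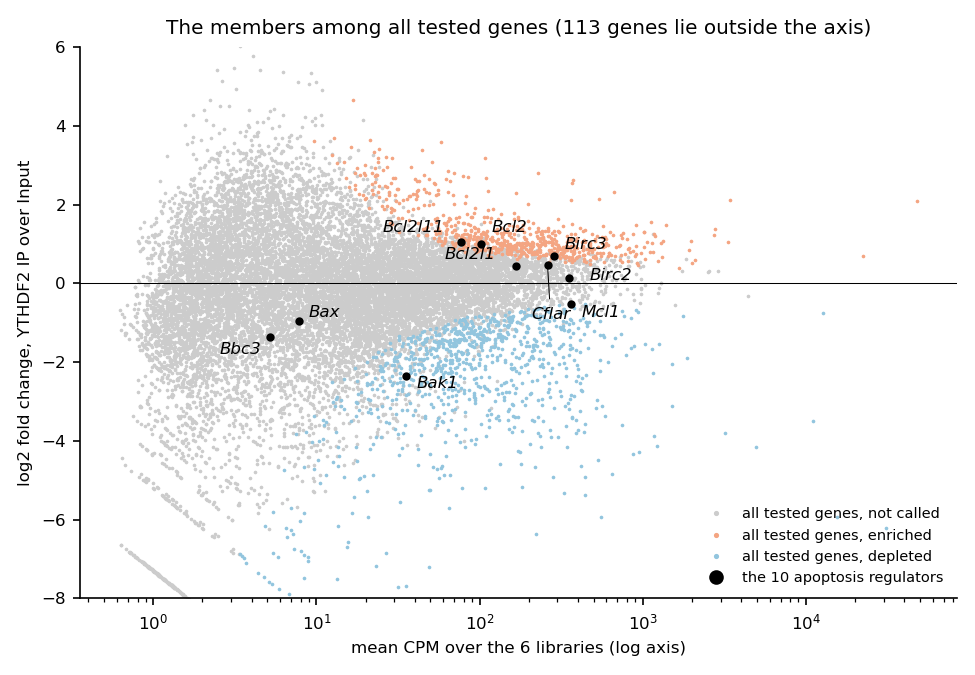
Log2 fold change of YTHDF2 IP over Input against mean CPM over the 6 libraries (log axis) for all 15615 tested genes, in light red where enriched, light blue where depleted and grey where not called, with the 10 genes as black points; 113 genes lie outside the vertical axis. Bcl2l11, Birc3 and Bak1 lie among called genes, while Bbc3 and Bax lie in the quartile from 3.55 to 13.5 CPM, where 2.13% of genes were called.

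The composition of the reads of the 10 genes differed between the groups. Mcl1 took 16.6% ± 4.91 of them in the IP and 27.9% ± 3.99 in the Input. Bak1 took 0.654% ± 0.0503 in the IP and 3.84% ± 0.0943 in the Input. For Birc3 the shares were 20.1% ± 2.01 in the IP and 14.2% ± 2.12 in the Input, and for Bcl2l11 they were 5.85% ± 0.579 in the IP and 3.28% ± 0.617 in the Input (SD, n = 3 each). A share within the list falls when another gene of the list rises, so these values are not independent.

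Sums over the functional classes were set against each other in each library. The summed reads of Bcl2, Bcl2l1 and Mcl1 over those of Bax and Bak1 gave log2 ratios of 5.33, 4.81 and 5.62 in the IP and 3.34, 3.03 and 3.20 in the Input. The groups did not overlap, and the ratio was on average 4.18-fold higher in the IP. Bak1 made up 85 to 100 of the 85 to 163 effector reads of an IP library, and 599 to 836 of the 679 to 1043 of an Input library. Against the summed reads of Bcl2l11 and Bbc3, the same pro-survival sum gave 2.88, 2.31 and 2.39 in the IP and 3.50, 3.50 and 3.36 in the Input. The IP lay below the Input there, with a mean difference of -0.93. Bcl2l11 made up 764 to 857 of the 801 to 893 BH3-only reads of an IP library, and 416 to 859 of the 491 to 933 of an Input library. These ratios carry no test, and no share of other gene pairs or sums that separate in this way is given here. They hold the same reads as the calls of Bak1 and Bcl2l11, so they add no separate evidence. The classes within each were not weighted by transcript length.

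**Figure D4:**
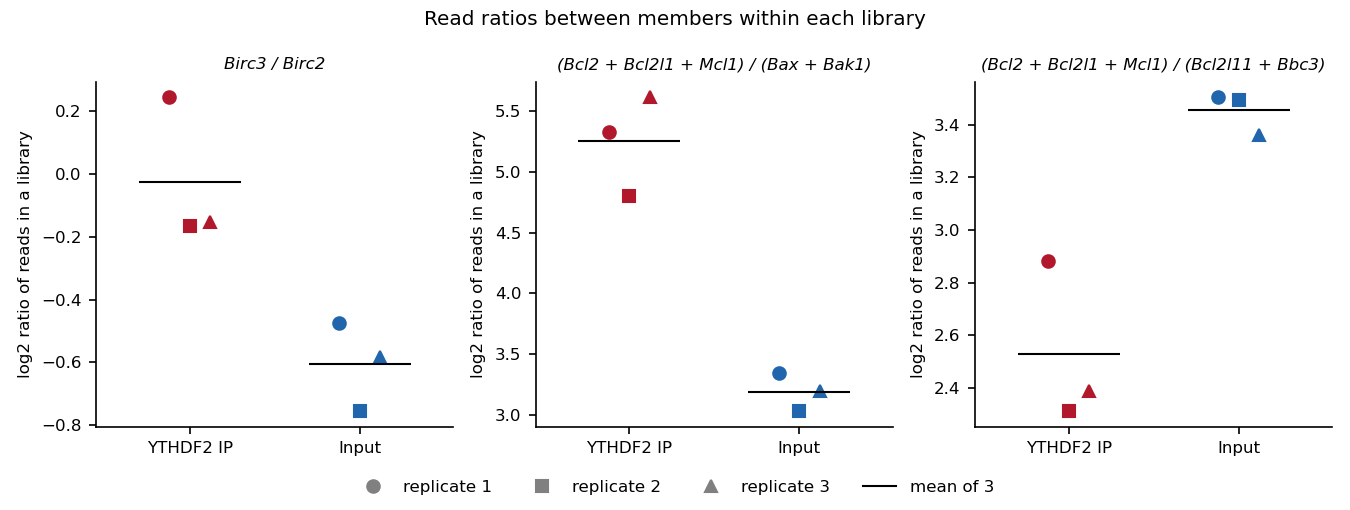
Log2 ratio of reads between genes of the list within each library (0.5 added to each count), for the YTHDF2 IP (red, left) and the Input (blue, right), with replicate numbers as marker shapes and the mean of 3 as a black line; the axes do not start at 0. The groups do not overlap in any of the 3 ratios shown. The IP lies above the Input for Birc3 over Birc2 and for the pro-survival over the effector sum. It lies below the Input for the pro-survival over the BH3-only sum. Of the ratios computed but not shown, Mcl1 over Bcl2, Mcl1 over Bcl2l1 and Bax over Bak1 overlap between the groups, and Bcl2l11 over Bbc3 does not.

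**Figure D5:**
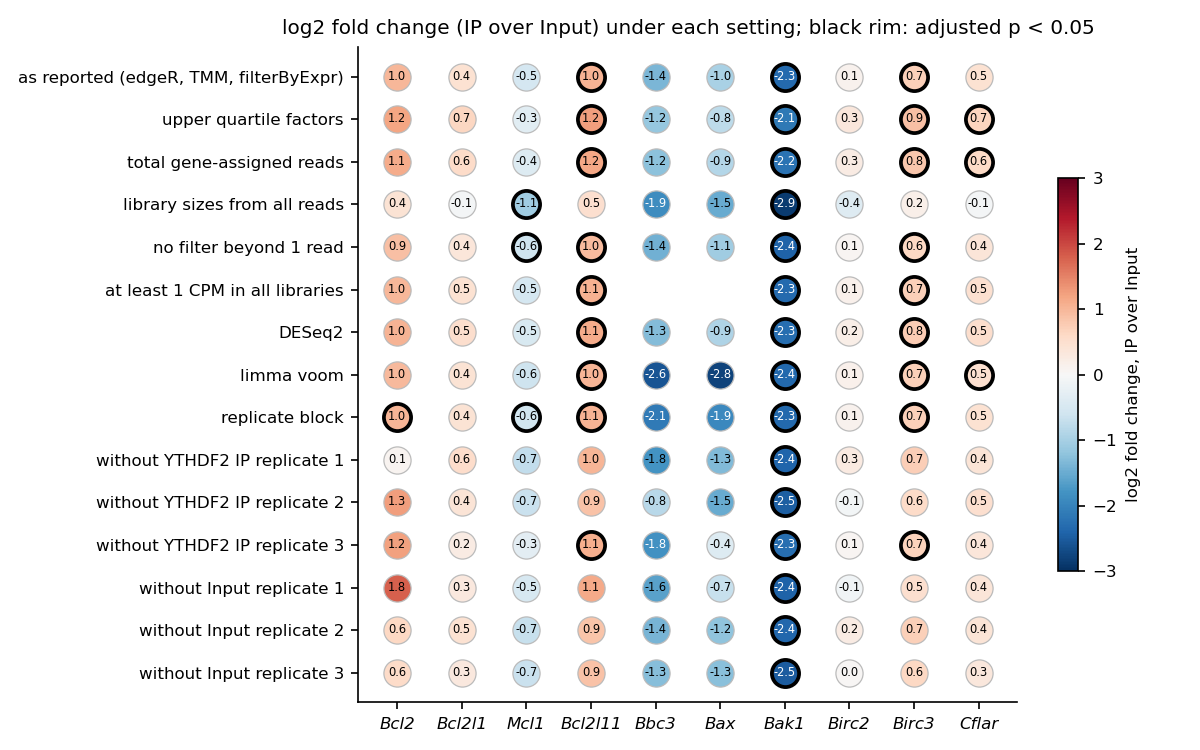
Log2 fold change of YTHDF2 IP over Input (colour and printed value) for each gene, in columns, under the reported setting and 14 alternatives, in rows; a black rim marks an adjusted p under 0.05 and an empty place a gene that the filter removed. Bak1 is depleted in every row, while Bcl2l11 and Birc3 are each called in 8 of the 14 alternatives.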

How the data were processed

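Each library has its own deposited file of raw counts, the number of reads per Ensembl gene ID. Trimmomatic 0.39, HISAT2 2.1.0, HTSeq, DESeq2 and the build mm10 are named per the submitters' processing notes, without roles; the annotation release, the strand setting and the handling of duplicates were not stated there. The 5 HTSeq summary categories, 74.7% to 75.8% of the reads of an IP file and 60.0% to 62.4% of an Input file, and the spike-in IDs stayed out of library sizes and tests. Counts were tested with edgeR 4.0.16 in R 4.3.3 (filterByExpr, TMM, robust quasi-likelihood F-test, group as the only term, two-sided, Benjamini-Hochberg over all tested genes), after a check on simulated counts. SE came from the F statistic and 95% intervals from its degrees of freedom. The alternatives were other size factors and filters, DESeq2 1.42.0, limma voom (limma 3.58.1), a replicate block and each library left out. Within a group, libraries differed by more than sampling noise (chi-square per degree of freedom of at least 16.1). Symbols of the 10 genes came with their IDs, and positions were read by symbol from RefSeq (GRCm38.p6), of whose 49997 rows 0 hold an Ensembl ID. For this reason the 4 pathway lists and 8 marker lists were not applied, and no gene of like pattern was named, though the rule allowed it. All 10 genes were named whatever their values. The genes and lists were chosen with earlier results of these data known. Counts carry no molecular identifiers, so limits from 3 reads cover counting error only.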

Additional observations from a re-analysis of the deposited data

Results flagged for a closer look

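Outside the gene counts, 1 measure was higher in the IP than in the Input: the share of reads assigned to no annotated feature averaged 71.7% over the IP files, against 50.4% over the Input files. These reads enter the fold changes above only through library sizes from all reads.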

How the results depend on the processing

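Bak1 kept its depletion in all 14 alternatives, and Bax and Bbc3 were called in none of the 13 that tested them; the filter of 1 CPM in all libraries removed both. With library sizes from all reads, the log2 fold changes of Bcl2l11 and Birc3 were 0.51 and 0.18 and no longer passed, Mcl1 passed at -1.06, and Bcl2l1, Birc2 and Cflar turned to -0.069, -0.38 and -0.062; this scaling moved the median of all tested genes by -0.53. In edgeR's test it left 0 of the 10 genes enriched, 0 also at an unadjusted p under 0.05, and 2 depleted. DESeq2, with its own size factors, gave 2 enriched genes of the 10, and 1382 of the 20847 genes with an adjusted p. At an unadjusted DESeq2 p under 0.05 it gave 3 of the 10. No share of all genes at an unadjusted p is given here, so counts at that threshold have no background. Mcl1 also passed without a filter (-0.62), where 2 of the 10 genes were depleted, and 1319 of 40072 over all genes. It passed as well with a replicate block (-0.58, edgeR adjusted p = 0.0477), where 2 were depleted, and 1095 of 15615 over all genes. The median of all tested genes was -0.50 with the block, and Mcl1 stood at -0.083 relative to it. Bcl2 passed with the block too (1.02, edgeR adjusted p = 0.00919). Cflar passed with upper quartile factors (0.66), total counts (0.59) and limma voom (0.47). Leaving out 1 library gave 0.87 to 1.13 for Bcl2l11, 0.51 to 0.74 for Birc3, -0.11 to 0.28 for Birc2 and 0 to 2 enriched genes; in these fits Bcl2l11 and Birc3 kept an unadjusted edgeR p under 0.05. The log2 ratio of Bax over Bak1, IP minus Input, was -0.32 and ranged from -1.45 to 1.93 with 1 library left out, the highest without IP replicate 3; the other ratios kept their sign. Over all genes, the enriched numbered 676, and 1081 with upper quartile factors, 160 with all reads, 1030 with the 1 CPM filter, 1382 with DESeq2 and 188 to 999 with 1 library left out. The depleted numbered 954, and 1958 with all reads, 2085 with DESeq2, 1715 with limma voom and 563 to 1661 with 1 library left out. Enriched genes were 41.5% of all calls with TMM, 57.4% with upper quartile factors, 51.8% with total counts and 7.55% with all reads. Fewer libraries or genes enter some of these fits; beyond that the cause was not tested. No label says that equal numbers share a lysate. Deviations of same-numbered libraries correlated at 0.0999, 0.026 and 0.024 over all tested genes, where the best match of each library in the other group had the same number. Over genes of at least 50 CPM the correlations were 0.325, 0.178 and 0.032, and IP replicate 3 correlated best with Input replicate 2 (0.061). In neither set was every pair above 0.1, so the fit without a block was kept, which does not show that the numbers are unpaired. Bax and Bbc3 had 0 to 63 reads per IP library; Bax was at 0 in IP replicate 3 and Bbc3 in IP replicate 2, and what sets these zeros was not tested.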
